A study of Rattus norvegicus with 25 samples.

Results

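Striatal gene expression was compared between adolescent rats whose mothers had been limited in their food and rats whose mothers had eaten freely. The comparison took the 18 of the 25 arrays of the series that were titled as one of these 2 groups, 10 from food-restricted and 8 from freely fed mothers, with 1 array per rat. The dams of the Con offspring (n = 8) ate and drank freely. Con-Pf offspring (n = 10) came from pair-fed dams, which received each day the amount of food that a matched nicotine-drinking dam had eaten on the day before, with no limit on water. All were male Lister Hooded rats, experimentally naïve, that carried no transgene and were killed at PND 35 to 42, so that the restriction of the mother lay weeks before the measurement. The remaining arrays (Nic, n = 7, offspring of dams given nicotine in their drinking water) entered only the estimate of the spread and a comparison of levels. Con-Pf 9 and Con-Pf 10 carried a Con-Pf title and the description of a control, and were kept as Con-Pf. The study's methods are divided on the group sizes. The rats listed, less the arrays removed, give the sizes of the titles, whereas the statistics paragraph gives those of Con and Con-Pf the other way round. The results the study reports follow the titles. Its log2 differences between Con-Pf and Con for Rasl11a (0.76), Gpr3 (0.70) and Dusp5 (0.62) are those of the title groups.

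The striatum is the main input station of the basal ganglia, and most of its neurons are medium spiny neurons, which receive glutamate from the cortex and thalamus and dopamine from the midbrain. Synaptic input that raises calcium or cAMP in these neurons activates MAP kinases and the transcription factors CREB and SRF, which switch on a wave of immediate early genes within minutes. Later waves include secreted and signalling proteins, and phosphatases of the DUSP family together with Sprouty proteins, which switch the MAP kinases off again. Undernutrition of the mother is also known to act on the stress hormone axis of the offspring, whose glucocorticoids act in the striatum through receptors that induce genes such as Tsc22d3, Klf9 and Fkbp5.

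Levels are RMA values on the log2 scale, in which a difference of 1 is a doubling, and each difference is Con-Pf minus Con from limma with its standard error. Of 29214 probe sets, the 14607 with a mean at or above the median were tested, and 8989 genes had at least 1 of them. A probe set was called at a Benjamini-Hochberg adjusted p under 0.05. The sources used here do not give the litter of each rat, so the p-values measure the spread between these animals, which can include littermates, and can be too small. Precision is limited by how many arrays each group had. Whether a transcript was lower because fewer cells held it or because each cell held less cannot be told apart in tissue RNA.

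The tissue label was borne out by the levels. Drd2, Adora2a, Penk and Ppp1r1b, which define medium spiny neurons, lay above 12 on the log2 scale in all 18 arrays. Of the other defining genes, Drd1 lay between 11.03 and 11.30 and Tac1 between 10.66 and 10.96. None of the 20 medium spiny neuron genes measured passed the test (12 higher, 8 lower, median difference 0.01). The arrays correlated with each other at 0.967 to 0.996 over the probe sets kept. Con 3 and Con 5 stood apart on the first principal component, which held 30.4% of the variance, with scores of -25.2 and -33.9 where the other arrays compared lay between -11.6 and 9.63. Both arrays had low levels of oxidative phosphorylation and ribosomal protein genes, and results are therefore also given without them, for which limma called 85 probe sets (0.582% of those tested). The study kept a sample with a low RNA integrity number, which it put down to a likely fault in chip loading. It does not name that sample, so whether it is among these arrays is not known.

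Between Con-Pf and Con, 184 probe sets were called (1.26% of those tested), 146 of them higher (1.00%) and 38 lower (0.260%) in Con-Pf. Of these, 20 probe sets were of the immediate early genes and 10 of the clock genes, and 32 had no single gene symbol. The remaining 122 probe sets belonged to 122 genes, 99 that rose and 23 that fell, out of 8941 genes measured outside those lists. This count depends on the lists, which were drawn up here. The study counts Dusp14 among the immediate early genes, whereas it stands outside that list here. The rises had a median of 0.24 and reached 0.76, and 8 of them were 0.5 or more. The falls had a median of -0.24, and the largest was -0.42. Without Con 3 and Con 5 all 122 kept their direction and 41 were still called, 34 that rose and 7 that fell. With 1 probe set per gene, 120 of all 8989 genes rose and 30 fell, 5138 were higher and 3851 lower, and 2213 had an unadjusted limma p under 0.05. The counts of the lists below are to be read beside these.

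**Figure D1:**
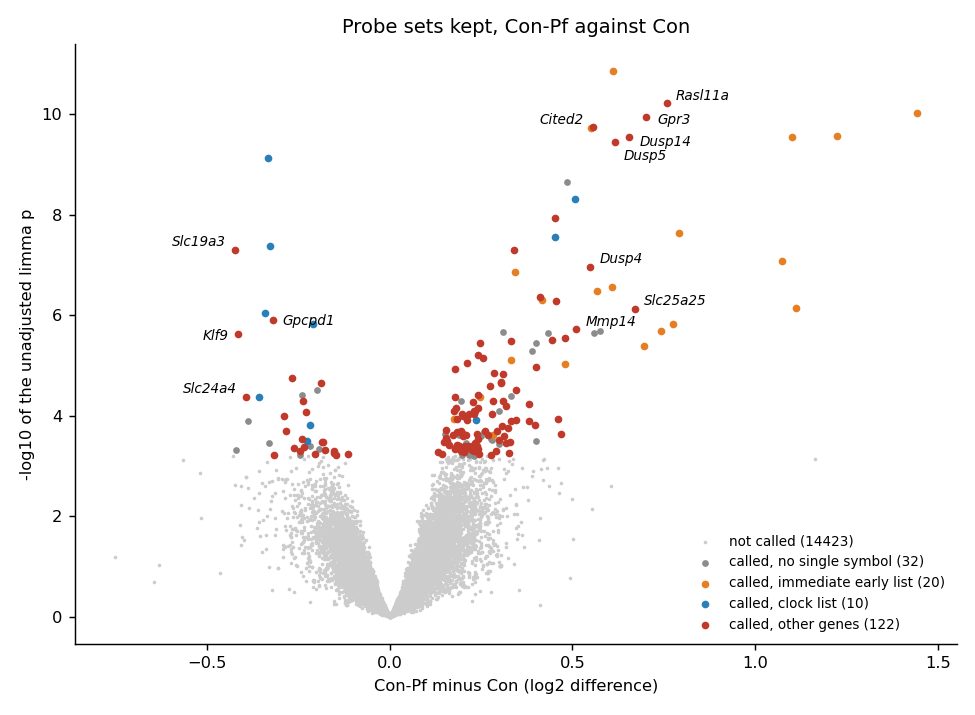
Difference between Con-Pf and Con (x axis, log2) against the -log10 of the unadjusted limma p (y axis) for the 14607 probe sets, coloured by whether a probe set was called and by its list. The 122 called genes outside the immediate early and clock lists (red) lie mostly at the right, with Rasl11a, Gpr3, Cited2, Dusp14 and Dusp5 highest among them.

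The split between rises and falls changed with some scalings of the arrays and hardly with another. Of the calls, 79.3% were higher in Con-Pf. When the arrays were centred on their median this share was 77.9% (109 of 140), and when they were quantile normalised once more it was 66.5% (119 of 179). Centring on the median of the probe sets kept, chosen after seeing the data, gave 61.0% (111 of 182). The number of calls rested on single arrays as well. The removal of Con 3 gave 104 calls, that of Con 5 gave 108, that of Con 1 gave 114 and that of Con-Pf 2 gave 116. The removal of Con 4 gave 285, that of Con 8 gave 295, that of Con 6 gave 344 and that of Con 7 gave 480. Leaving out Con-Pf 9 and Con-Pf 10 gave 116 calls, 71 of them genes outside both lists. Counting these 2 arrays as Con, which is not the grouping that the study's reported differences follow, gave 27 calls, 10 of them such genes.

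Outside the immediate early and clock lists the largest rises were those of Rasl11a, Gpr3 and Slc25a25, all on the list of genes that follow neuronal activity with a delay. Of 16 late response genes with a tested value, 6 rose and 0 fell while 10 did not pass, with a median difference of 0.10. Over all 8989 genes the median was 0.02, and 120 rose and 30 fell. The gene lists, this one included, were chosen with earlier results of these data known, so that their counts and medians are descriptions only. Rasl11a, a small GTPase of the Ras family, lay between 6.73 and 7.12 (median 6.84) in Con and between 7.49 and 7.97 (median 7.60) in Con-Pf. All 10 Con-Pf arrays were above all 8 Con arrays, and the rise was 0.76 (standard error 0.07, 1.69-fold, adjusted p = 4.16e-07 from limma). Gpr3, a receptor that raises cAMP without a known ligand, ranged from 8.32 to 8.75 (median 8.49) in Con and from 8.95 to 9.43 (median 9.23) in Con-Pf. Its groups were separate too, with a rise of 0.70 (standard error 0.07, 1.63-fold, adjusted p = 4.16e-07).

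Slc25a25, a calcium-sensitive carrier of ATP-Mg and phosphate in the inner mitochondrial membrane, had levels of 8.55 to 9.23 (median 8.71) in Con and 9.05 to 9.82 (median 9.43) in Con-Pf. Its groups overlapped, since Con 5 at 9.23 was above 2 Con-Pf arrays, and the rise was 0.67 (standard error 0.10, adjusted p = 3.78e-04) with all arrays and 0.78 without Con 3 and Con 5. Cited2, which competes with other factors for the coactivators CBP and p300, was between 9.61 and 10.14 (median 9.94) in Con and between 10.31 and 10.61 (median 10.48) in Con-Pf. It rose by 0.56 (standard error 0.06, adjusted p = 4.66e-07) with no overlap. Mmp14, a membrane-bound matrix protease, rose by 0.51 (standard error 0.08, adjusted p = 8.31e-04), and 9 of 10 Con-Pf arrays were above the highest Con array. The neuropeptide precursor gene Scg2 rose by 0.24 (adjusted p = 0.00891), and was not called without Con 3 and Con 5 (adjusted p = 0.0699). Not passing were Vgf, also a secreted neuropeptide precursor, with a difference of 0.25 (adjusted p = 0.0713), the CREB family gene Crem with 0.13, and the synaptic pentraxin genes Nptx2 with 0.08 and Nptx1 with -0.05. The TGF beta family gene Inhba had -0.01 and Cartpt, a striatal neuropeptide gene, 0.01. Bdnf, Nrn1, Baz1a, Pcsk1 and Sertad1 gave no tested value.

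**Figure D2:**
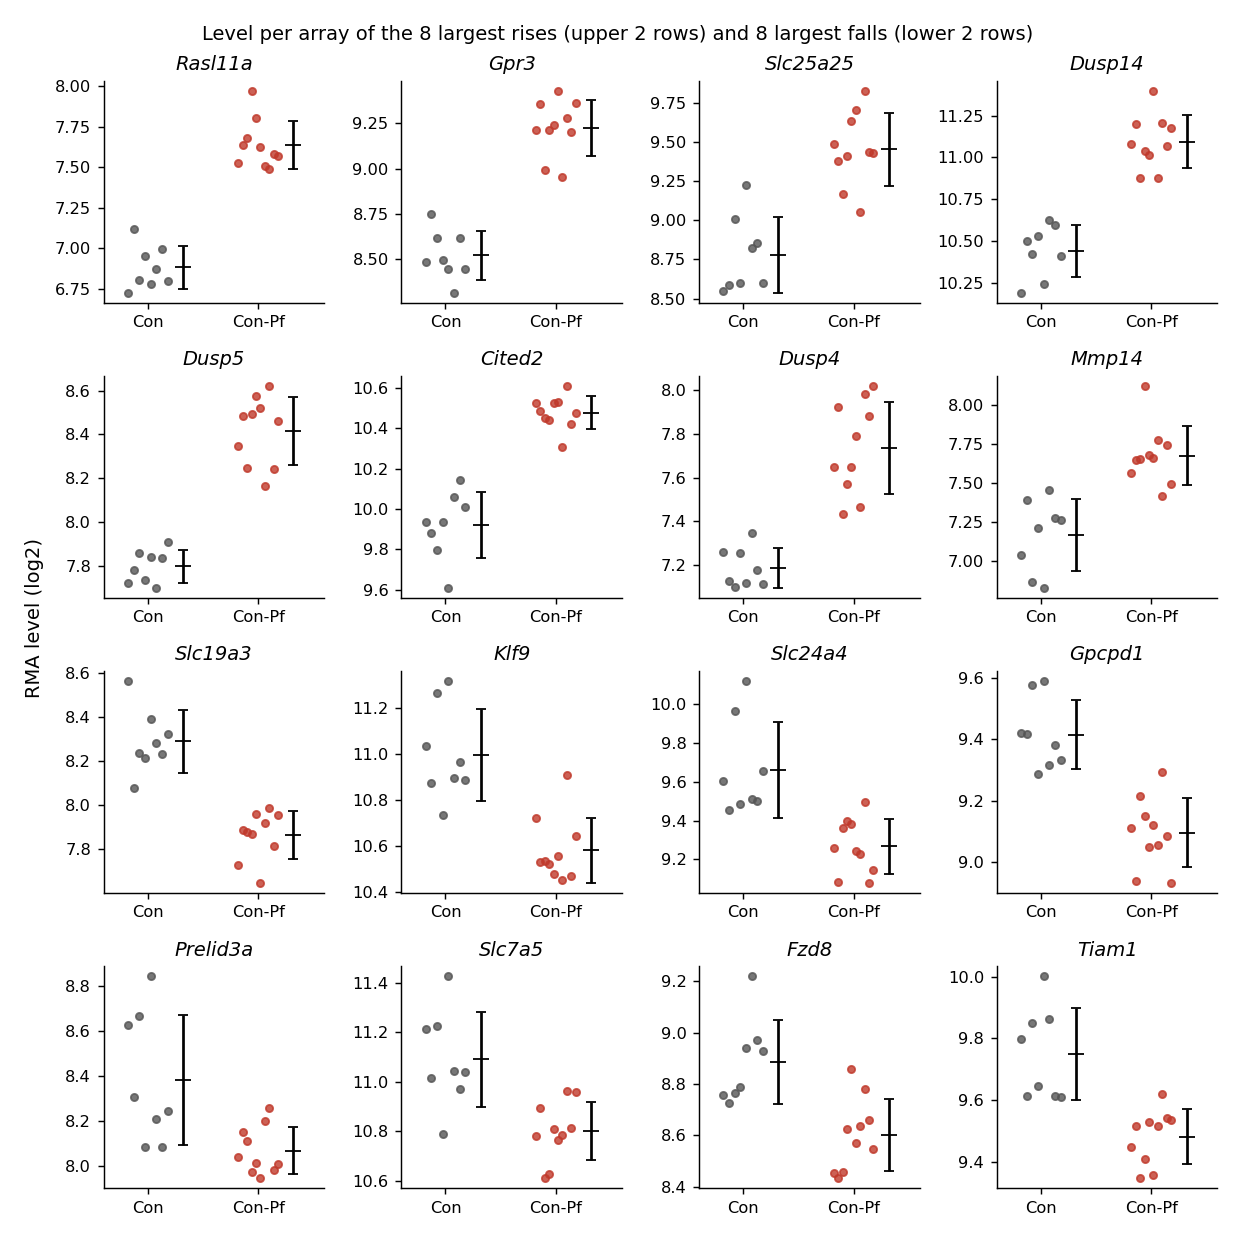
RMA level per array (y axis, log2) in the 8 Con (grey) and 10 Con-Pf (red) rats for the 8 largest rises and the 8 largest falls outside the immediate early and clock lists. Each point is a rat and the bars are the mean ± SD. The groups are apart for Rasl11a, Gpr3, Dusp14, Dusp5, Cited2, Dusp4 and Slc19a3, and overlap for the others.

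Of 18 genes that end MAP kinase signalling, 5 rose and 0 fell, and 13 did not pass, 4 of the 18 being lower, with a median difference of 0.07. Dusp14, a small dual specificity phosphatase, was between 10.19 and 10.62 (median 10.46) in Con and between 10.88 and 11.40 (median 11.08) in Con-Pf, a rise of 0.66 (standard error 0.07, adjusted p = 4.66e-07). Dusp5, which acts on ERK in the nucleus, lay between 7.70 and 7.91 (median 7.81) in Con and between 8.16 and 8.62 (median 8.47) in Con-Pf, a rise of 0.62 (standard error 0.06, adjusted p = 5.31e-07). Neither gene had a Con array within the range of the Con-Pf arrays. Dusp4, a nuclear phosphatase of ERK and JNK, ranged from 7.10 to 7.35 (median 7.15) in Con and from 7.44 to 8.02 (median 7.72) in Con-Pf, again without overlap, and rose by 0.55 (standard error 0.08, adjusted p = 7.64e-05).

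Dusp6, the cytoplasmic ERK phosphatase, rose by 0.46 (standard error 0.10, adjusted p = 0.0184) with overlapping groups. In this gene Con 5 (9.12) and Con 3 (8.94) were the highest Con arrays, and without them the rise was 0.59 (adjusted p = 6.15e-04). Spry1, of the Sprouty proteins that block Ras activation, rose by 0.17 (adjusted p = 0.0299). Its relative Spry4 had a difference of 0.25 (adjusted p = 0.0534) and was called without Con 3 and Con 5 (0.31, adjusted p = 0.0207), so that 6 genes of this list rose there. Spry2 had 0.24 (adjusted p = 0.0553) and Spry3 0.18 (adjusted p = 0.0852), whereas Dusp7 had -0.15, Dusp10 and Dusp16 were within 0.01 of 0, and Errfi1, an inhibitor of the EGF receptor, had -0.04. The upstream regulators did not pass: of 14 genes of CREB and SRF regulators 0 were called, 10 were higher and the median was 0.08. Creb3 with 0.09 and Atf1 with 0.14 had the smallest p. Of 28 genes of RGS proteins and phosphodiesterases 0 passed, and Pde2a, a phosphodiesterase stimulated by cGMP, had the smallest p with -0.22 (adjusted p = 0.0832).

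Beyond these lists the largest rises were of varied function. B3galt2, a galactosyltransferase of glycoproteins and glycolipids, rose by 0.48 (standard error 0.08, adjusted p = 0.00104). Edn1, the precursor of the vasoconstrictor peptide endothelin 1, had levels of 7.15 to 7.57 (median 7.38) in Con and 7.65 to 7.97 (median 7.84) in Con-Pf, without overlap, and rose by 0.45 (standard error 0.07, adjusted p = 2.85e-04). Pvr, a cell adhesion molecule of the nectin-like family, rose by 0.45 (standard error 0.06, adjusted p = 1.23e-05) with every Con-Pf array at 7.19 or above and every Con array at 7.05 or below. Klf5, a zinc finger transcription factor, rose by 0.44 in 1 probe set and had 0.15 (adjusted p = 0.183) in another. Phlda1 rose by 0.41 (adjusted p = 2.55e-04) with separate groups. Prr13 rose by 0.47 (adjusted p = 0.0299) and depended on the arrays that stood apart. Its Con 5 level of 8.57 and Con 3 level of 8.80 were the lowest of all, and without them the difference was 0.28 (adjusted p = 0.133).

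All Con-Pf arrays lay above all Con arrays for 34 probe sets (0.233% of those tested) and below them for 6 (0.0411%). Outside the immediate early and clock lists these were 20 genes higher and 2 lower, all but Hexim1 (adjusted p = 0.0507) also called. The widest gaps, from the highest Con to the lowest Con-Pf array, were 0.37 for Rasl11a, 0.25 for Dusp14, 0.25 for Dusp5 and 0.20 for Gpr3. Among the smaller changes with separate groups, Pdp1, the phosphatase subunit that activates pyruvate dehydrogenase, was between 11.36 and 11.54 (median 11.48) in Con and between 11.67 and 11.99 (median 11.80) in Con-Pf. It rose by 0.34 (standard error 0.05, adjusted p = 4.00e-05) and had nearly the same difference without Con 3 and Con 5, also 0.34. Bmt2, a sensor of S-adenosylmethionine in the mTORC1 pathway, rose by 0.18 (standard error 0.03, adjusted p = 0.00315). Parm1 rose by 0.31 (adjusted p = 0.00542).

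The falls were led by Slc19a3, the thiamine transporter. Its levels ranged from 8.08 to 8.56 (median 8.26) in Con and from 7.65 to 7.99 (median 7.88) in Con-Pf. No Con-Pf array reached the lowest Con array, and Slc19a3 fell by 0.42 (standard error 0.06, adjusted p = 4.00e-05 from limma). Slc24a4, an exchanger of sodium for calcium and potassium, was between 9.45 and 10.12 (median 9.56) in Con and between 9.08 and 9.49 (median 9.25) in Con-Pf, and fell by 0.39 (standard error 0.08, adjusted p = 0.00905). The groups met only at their edges, and Con 5 (10.12) and Con 3 (9.97) were the highest. Without these 2 arrays the difference was -0.27 (adjusted p = 0.0442).

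Of 35 nutrient transporter genes measured, 3 fell, 1 rose and 31 did not pass, and 29 were lower, with a median of -0.09. Besides Slc19a3, Slc7a5, which carries large neutral amino acids across the blood-brain barrier, fell by 0.29 (standard error 0.06, adjusted p = 0.0168). Slc44a2, a choline transporter-like gene, fell by 0.19 (adjusted p = 0.0364) in 1 probe set and had -0.01 (adjusted p = 0.935) in another. Slc16a1, which carries lactate and ketone bodies, rose by 0.18 (adjusted p = 0.0288). Glucose transporter genes did not pass, Slc2a1 with -0.18 (adjusted p = 0.147) and the neuronal Slc2a3 with -0.11. Without Con 3 and Con 5 the median of the list was -0.04 and only Slc19a3 was called.

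The rest of the largest falls were of varied function. Gpcpd1, which splits glycerophosphocholine, lay between 9.29 and 9.59 (median 9.40) in Con and between 8.93 and 9.29 (median 9.10) in Con-Pf, with overlap at 1 array only, and fell by 0.32 (standard error 0.05, adjusted p = 5.90e-04). It was the only call among 39 genes of fatty acid and phospholipid metabolism. Prelid3a, of the family of mitochondrial lipid transfer proteins, fell by 0.32 (adjusted p = 0.0495). Fzd8, a Wnt receptor, fell by 0.28 (adjusted p = 0.0275), Tiam1, an activator of Rac, by 0.27 (adjusted p = 0.00457) and Dgki, a diacylglycerol kinase, by 0.26 (adjusted p = 0.0415). The lysosomal chloride and proton exchanger gene Clcn7 fell by 0.25, Dhx35 by 0.24, the calmodulin-dependent kinase kinase gene Camkk1 by 0.24, the cell cycle kinase gene Wee1 by 0.23, Ifrd2 by 0.23 and Nt5e, whose product makes adenosine outside the cell, by 0.21. Of the 15 largest falls, Slc19a3, Klf9, Slc24a4, Gpcpd1 and Tiam1 were still called without Con 3 and Con 5.

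**Figure D3:**
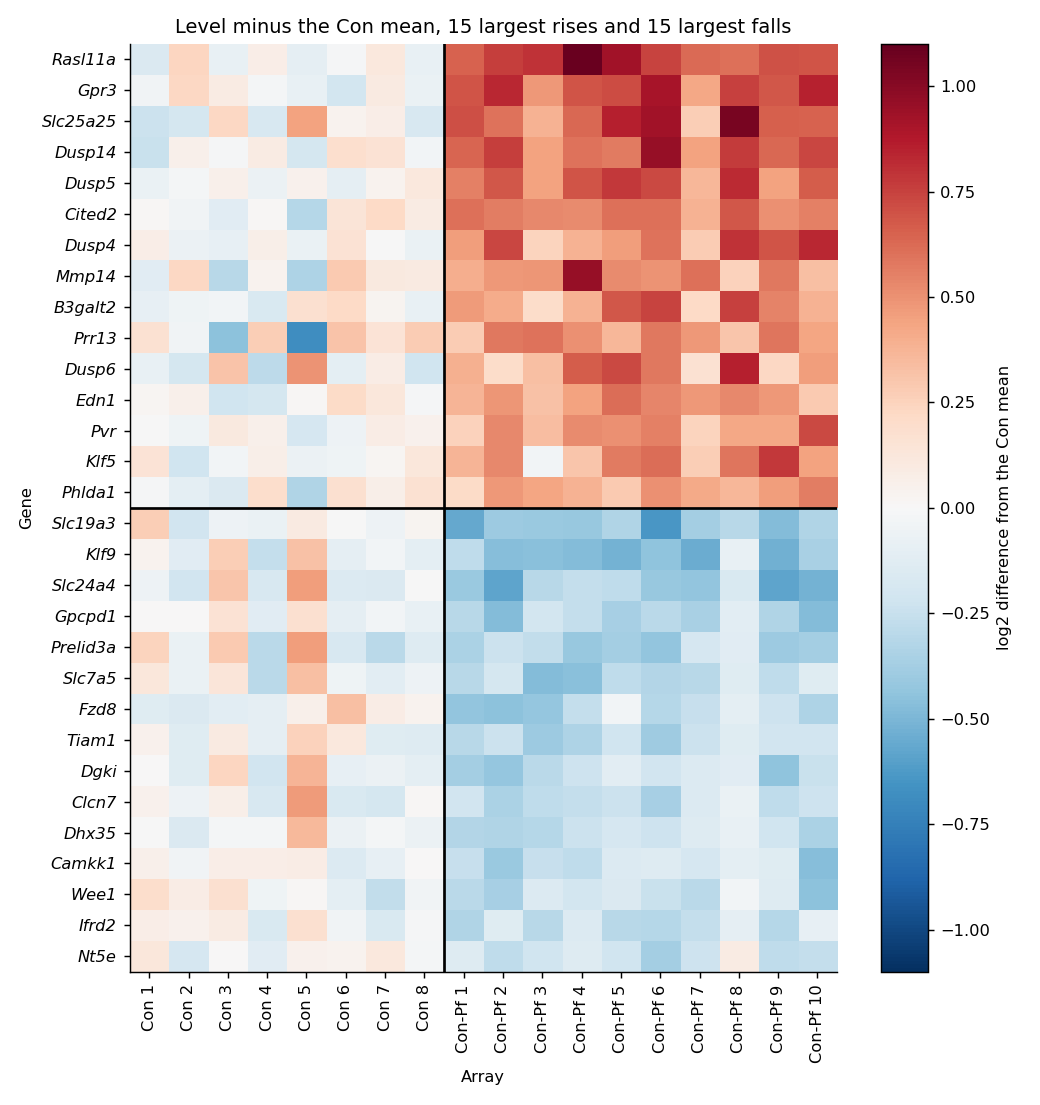
Level of each array minus the mean of the 8 Con arrays (colour, log2) for the 15 largest rises and the 15 largest falls (rows) in 8 Con and 10 Con-Pf arrays (columns). The rises are raised in the Con-Pf arrays, except that Klf5 in Con-Pf 3 (7.82) lies near the Con mean, and for the falls Con 5 is the highest Con array in 11 genes and Con-Pf 8 the highest Con-Pf array in 12 genes.

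The animals of a group were not alike in these genes. Averaged over the 15 largest rises, the Con-Pf arrays lay between 0.38 (Con-Pf 7) and 0.67 (Con-Pf 6) above the Con mean, and the Con arrays between -0.08 (Con 5) and 0.09 (Con 7). Over the 15 largest falls, the Con-Pf arrays lay between -0.36 (Con-Pf 2) and -0.11 (Con-Pf 8). The Con arrays lay between -0.14 (Con 4) and 0.24 (Con 5) there. The mean of the rises thus separated every Con-Pf from every Con array, whereas in the falls Con-Pf 8 was above Con 4. These genes were chosen for their difference, so that the separation is a description.

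Glucocorticoid targets moved in both directions. Of 20 genes of glucocorticoid receptors and targets, 2 rose, 2 fell and 16 did not pass, with a median of 0.03. Klf9, a zinc finger factor that responds to both glucocorticoids and thyroid hormone, ranged from 10.74 to 11.32 (median 10.93) in Con and from 10.46 to 10.91 (median 10.53) in Con-Pf. Its groups overlapped through 1 Con-Pf array, and it fell by 0.42 (standard error 0.07, adjusted p = 8.90e-04). Tsc22d3, the glucocorticoid-induced leucine zipper, lay between 8.27 and 8.48 (median 8.36) in Con and between 8.04 and 8.25 (median 8.20) in Con-Pf. It fell by 0.19 (standard error 0.04, adjusted p = 0.00542) with no overlap.

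The other calls in this list were rises. Bcl6, a transcriptional repressor, rose by 0.33 (standard error 0.06, adjusted p = 0.00111) and Cdkn1a, the cell cycle inhibitor p21, by 0.34 (adjusted p = 0.0188). Both are also induced by other signals than glucocorticoids. Fkbp5, a co-chaperone of the receptor, had a difference of -0.21 (adjusted p = 0.0658), Sgk1 had -0.07, and the receptor genes Nr3c1 and Nr3c2 had -0.10 and 0.05, none of them passing. Klf9, Tsc22d3 and Bcl6 were still called without Con 3 and Con 5, and Cdkn1a was not (adjusted p = 0.127). Of 15 thyroid hormone signalling genes Klf9 alone was called, and of 29 genes of insulin, IGF and mTOR signalling 0 were, with Rheb at 0.17 and Ddit4 at -0.18 (adjusted p = 0.116 and 0.119).

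The lists of cellular stress held some calls, where 120 of all 8989 genes rose and 30 fell. None of these called genes passed without Con 3 and Con 5, some with a smaller difference there and some with one about as large. Of 25 heat shock genes 22 were higher, and 21 were without Con 3 and Con 5, with a median of 0.06 in both fits. In this list 4 genes rose and 0 fell. They were the small heat shock protein genes Cryab (0.38, adjusted p = 0.0192) and Hspb1 (0.33, adjusted p = 0.0192), Bag3, a co-chaperone of autophagy (0.27, adjusted p = 0.0299), and Dnajb5 (0.19, adjusted p = 0.0403). For Cryab the Con 3 level of 9.65 and the Con 5 level of 9.73 were the lowest of the 18. Without both arrays its difference was 0.25 (adjusted p = 0.144), that of Hspb1 was 0.22 (adjusted p = 0.134) and that of Bag3 0.19 (adjusted p = 0.214), whereas Dnajb5 kept a difference of 0.19 (adjusted p = 0.126). Of 12 genes of DNA damage and growth arrest 3 rose: Gadd45a (0.40, adjusted p = 0.0219), Gadd45g (0.31, adjusted p = 0.0231) and Cdkn1a. Without Con 3 and Con 5 Gadd45g still had 0.28 (adjusted p = 0.126), and Gadd45a had 0.28 (adjusted p = 0.194) and Cdkn1a 0.24. Both Gadd45 genes, which also take part in DNA demethylation, were the only calls among 10 genes of that process, in which Dnmt1 had 0.03 and Dnmt3a -0.11.

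In the integrated stress response, Ppp1r15a, which reverses the phosphorylation of eIF2 alpha, rose by 0.24 (adjusted p = 0.0345) and Slc7a5 fell, among 23 genes measured. Ppp1r15a kept a difference of 0.24 without Con 3 and Con 5 (adjusted p = 0.0966). Atf4 itself had a difference of 0.14 (adjusted p = 0.0896) and Ddit3 0.18 (adjusted p = 0.127). The unfolded protein response (18 genes), the hypoxia response (16) and the antioxidant genes and metallothioneins (24) had no call. Of 15 imprinted genes, Nap1l5 rose by 0.25 (standard error 0.05, adjusted p = 0.00210) and was still called without Con 3 and Con 5 (0.24, adjusted p = 0.0180), while Igf2 had 0.11, Grb10 -0.16 and Nnat 0.27 (adjusted p = 0.0677).

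Most oxidative phosphorylation and ribosomal protein genes had higher values in Con-Pf, none of them passed, and both medians were near 0 without the arrays that stood apart. Of 69 oxidative phosphorylation genes, 65 were higher in Con-Pf, with a median of 0.14, and 0 passed limma (25 had an unadjusted p under 0.05). The mean score of the list, relative to all arrays, was -0.31 in Con 3 and -0.42 in Con 5, and without them the median was 0.02. Of 67 cytosolic ribosomal protein genes, 64 were higher and 0 passed (24 with an unadjusted p under 0.05), and the median went from 0.13 to 0.02. Of 35 proteasome genes 2 rose, Psmd10 with 0.30 (adjusted p = 0.0346) and the catalytic subunit gene Psmb5 with 0.19 (adjusted p = 0.0403). Their median went from 0.08 to 0.02, with 0 calls. Of 27 glycolysis genes 17 were lower (median -0.01), and the 1 call was Pfkl with -0.12 (adjusted p = 0.0487), also lost without both arrays, and among 22 cholesterol genes 0 passed.

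Lists of neuronal signalling genes differed in their direction, beside 5138 genes higher and 3851 lower over all 8989. Of 28 glutamate and GABA receptor genes 23 were lower and 0 passed (9 with an unadjusted p under 0.05, median -0.08), and without Con 3 and Con 5 the median was -0.03. The smallest p were those of Grm7 with -0.14 and Gabra4 with -0.15. Of 44 sodium and calcium channel and exchanger genes 32 were lower, Slc24a4 fell, and the median went from -0.09 to -0.04. Of 58 potassium channel genes 1 rose, Kcnj2, which encodes the inward rectifier Kir2.1 that holds medium spiny neurons at rest, by 0.20 (standard error 0.04, adjusted p = 0.0168). It kept 0.20 without both arrays (adjusted p = 0.0518). Of 32 synaptic vesicle genes 15 were higher and 17 lower, and the same counts held for 32 receptors for amines, acetylcholine and neuropeptides. None of these passed, nor did any of 24 synaptic adhesion genes.

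**Figure D4:**
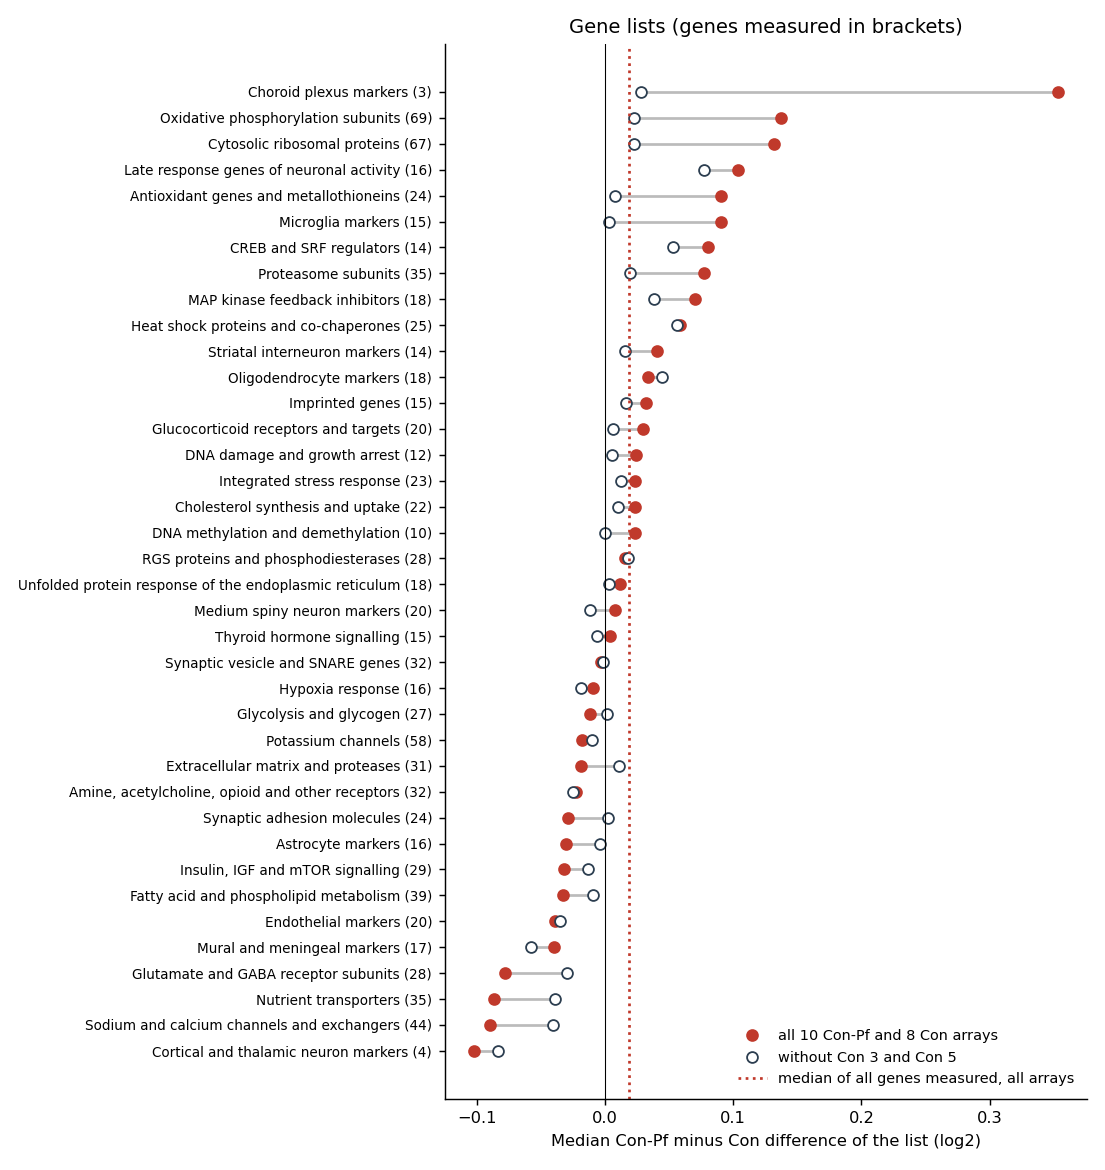
Median difference between Con-Pf and Con (x axis, log2) over the genes of each list (rows, genes measured in brackets), with all arrays (filled) and without Con 3 and Con 5 (open). Oxidative phosphorylation, ribosomal and antioxidant genes move from a raised median to near 0, and the late response genes go from 0.10 to 0.08.

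Markers of cell types did not pass in any list. The median differences were -0.03 for 16 astrocyte genes, 0.03 for 18 oligodendrocyte genes, 0.09 for 15 microglia genes, -0.04 for 20 endothelial genes and -0.04 for 17 mural and meningeal genes, each with 0 calls. Abcc9, a potassium channel subunit of pericytes, had -0.35 (adjusted p = 0.0843) and its 2 highest Con levels were those of Con 5 (9.15) and Con 3 (8.94). Tissue next to the striatum varied between single rats. The choroid plexus gene Ttr reached 13.48 in Con 2 and 13.69 in Con-Pf 4, where the Con median was 8.47 and the Con-Pf median 8.93. The cortical gene Slc17a7 reached 10.25 in Con 5 and had medians of 7.93 in Con and 7.59 in Con-Pf (difference -0.63, adjusted p = 0.300). Of 4 cortical and thalamic genes measured 3 were lower in Con-Pf, and the mean score of the list was between -0.29 and 0.70 in Con and between -0.37 and 0.07 in Con-Pf. The part of this carry-over in the rises and falls was not tested.

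**Figure D5:**
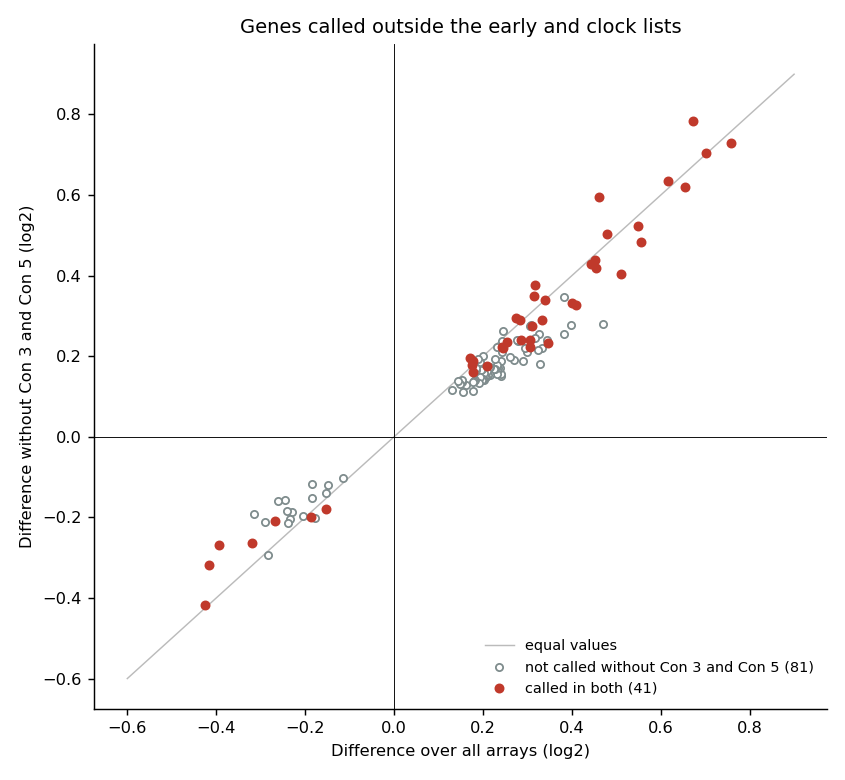
Difference between Con-Pf and Con (log2) of the 122 genes called outside the immediate early and clock lists, with all arrays (x axis) and without Con 3 and Con 5 (y axis). All 122 keep their sign, and most of the 81 genes that were not called without both arrays lie nearer to 0 than the line of equal values.

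The sizes of the genes still called without both arrays and of those lost overlapped widely, and a larger difference is also more readily called. The 41 genes still called had a median size of 0.33, and 0.30 without Con 3 and Con 5. The 81 that were lost had a median size of 0.23, and 0.17 without them. Bmt2 (0.18) and Spry1 (0.17) were among the former, and Prr13 (0.47) and Gadd45a (0.40) among the latter. Over all probe sets the median size went from 0.07 to 0.04. The fit without them also rests on 2 fewer arrays.

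The levels of the Nic rats, whose mothers set the food of the Con-Pf dams, differed in their place from gene to gene. Rasl11a had a mean of 7.21 ± 0.20 (SD, n = 7) in Nic, 6.88 ± 0.13 (n = 8) in Con and 7.64 ± 0.15 (n = 10) in Con-Pf, and Con-Pf was higher than Nic by 0.43 (adjusted p = 0.00415). Slc25a25 had 8.82 ± 0.23 in Nic and 8.78 ± 0.24 in Con against 9.45 ± 0.23 in Con-Pf, which was higher than Nic by 0.63 (adjusted p = 0.00404). Prr13, by contrast, had 9.65 ± 0.21 in Nic, near the 9.72 ± 0.12 of Con-Pf. This comparison shares the Con-Pf arrays with that against Con, and it called 27 probe sets (0.185% of those tested). Gpr3 was higher in Con-Pf than in Nic by 0.47, Dusp14 by 0.51, Dusp5 by 0.43, Cited2 by 0.37, Dusp4 by 0.39, Pvr by 0.28 and Pdp1 by 0.25, all called. Slc19a3 had -0.27 (adjusted p = 0.0578), Klf9 -0.22 (adjusted p = 0.638) and Edn1 0.24 (adjusted p = 0.425). No gene differed between Nic and Con at this threshold, Rasl11a among them (0.32, adjusted p = 0.268).

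Promoter sequences were available from RefSeq for 85 of the 99 genes that rose, 22 of the 23 that fell and 7473 of 8990 gene identifiers tested, each from 250 bases before to 50 bases after the gene start (build GRCr8). They were searched on both strands for sites of factors that respond to activity, time of day, heat or glucocorticoids. The cAMP response element TGACGTCA, which CREB binds, was found in 8 of the 85 (9.41%) and in 3.18% of all. The E-box CACGTG, which clock factors bind, was found in 6 of the 22 genes that fell (27.3%), in 12.9% of those that rose and in 9.74% of all. The AP-1 site TGACTCA, which FOS and JUN proteins bind, was in 5 of the 85 and in 2 of the 22, against 3.22% of all. The CArG box, bound by SRF, was in 2 of the 85, Dusp5 among them, against 1.18% of all. The letters AGAACA, one arm of the glucocorticoid response element, were in 11.8% of the 85, in 13.6% of the 22 and in 11.8% of all. The D-box TTATGTAA and the heat shock element were in 0 of either set, and in 0.361% and 0.468% of all. No motif contains another, these counts are descriptions without a test, and a match is not a bound site.

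Windows of 90 bases before the gene start are printed for genes described above, on the strand of the gene, to show where the motif lies. Capitals mark each match to the named motif. The windows are those of Slc25a25 (chr3:36116690-36116779, minus strand, cAMP response element 158 bases before the start), Scg2 (chr9:88256940-88257029, minus, the same element at 123), Gpcpd1 (chr3:140285426-140285515, minus, the same element at 130), Dusp5 (chr1:262543662-262543751, plus, a pair of CArG boxes side by side, the nearer at 72), Cited2 (chr1:14132103-14132192, plus, E-box at 160), Slc7a5 (chr19:66872542-66872631, minus, E-box at 179) and Slc19a3 (chr9:91747195-91747284, minus, AP-1 site at 115).
Slc25a25: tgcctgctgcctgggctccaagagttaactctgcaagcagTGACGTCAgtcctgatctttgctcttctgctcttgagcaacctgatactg
Scg2: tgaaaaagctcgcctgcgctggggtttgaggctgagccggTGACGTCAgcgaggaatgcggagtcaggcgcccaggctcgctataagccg
Gpcpd1: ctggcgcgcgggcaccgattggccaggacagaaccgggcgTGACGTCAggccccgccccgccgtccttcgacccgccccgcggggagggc
Dusp5: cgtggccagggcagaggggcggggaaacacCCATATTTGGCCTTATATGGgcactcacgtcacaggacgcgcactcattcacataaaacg
Cited2: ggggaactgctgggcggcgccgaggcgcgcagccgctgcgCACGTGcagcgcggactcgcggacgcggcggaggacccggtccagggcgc
Slc7a5: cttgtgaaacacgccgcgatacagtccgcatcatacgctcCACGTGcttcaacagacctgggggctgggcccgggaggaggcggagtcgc
Slc19a3: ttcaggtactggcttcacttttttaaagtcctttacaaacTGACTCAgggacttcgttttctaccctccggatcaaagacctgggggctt

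The genes with a cAMP response element differed in size of change, from 0.67 for Slc25a25 to a fall of 0.32 for Gpcpd1, so that the same 8 letters stood in front of genes that moved in opposite directions. No match was recorded for Rasl11a and Dusp14, among the largest rises, and not every gene that rose had a promoter sequence to search.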

How the data were processed

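RNA of the striatum had been hybridised to Affymetrix rat gene 1.0st arrays, 1 per rat, spread over hybridisation dates in a balanced way. The deposited values are log2 RMA levels: the authors corrected the background, quantile normalised the arrays and summarised each probe set, and the submitters' notes on processing list Affymetrix Expression Console 1.1 beside RMA. The authors had removed 2 Con arrays and 1 Nic array. Groups were taken from sample titles. The members and gene lists were chosen with earlier results of these data known.

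Probe sets with a mean over 25 arrays at or above the 0.5 quantile were kept. The platform's probe annotation gave 1 symbol to 15310 probe sets and several to 323. A gene was represented in a list by its probe set of highest mean. One model over the 3 groups was fitted with limma 3.58.1 in R 4.3.3 with version 1.17.8 of data.table, without covariates, with Benjamini-Hochberg adjustment over 14607 probe sets. Lists were described by counts and medians. On simulated data for this comparison, 191 of 200 probe sets changed by 0.5 were recovered, with 10 false calls. The simulated noise was independent between probe sets, without the variation that real arrays share, and 0.5 is larger than most differences called. These rates therefore do not carry over to the calls reported. Named were the 15 largest rises and 15 largest falls outside the immediate early and clock lists, up to 4 called members of each list by p, or otherwise 2 not passing, and up to 15 genes without overlap. Other members were named after their values were seen. Figures were drawn with Python 3.11.15, pandas 2.3.3 and matplotlib 3.10.9.

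The alternatives were other tests (the methods' t-test with unequal and with pooled variance, 2 groups only, trend and robust moderation, array weights), filters, scalings, the treatment of Con-Pf 9 and 10, a replicate block, and arrays left out. Signal over background was not analysed here.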

Additional observations from a re-analysis of the deposited data

Results flagged for a closer look

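Of the 190 tests of a named gene within 1 group, 13 found an array far from the others, where chance gives about 1 in 20. Con 5 was the highest Con array for Clcn7 (9.88, the next at 9.48) and Dhx35 (8.59, the next at 8.23), and Con 3 for Hif1a (11.08). Con-Pf 8 was the highest Con-Pf array for Nt5e (8.31) and for Pfkl (9.58), and Con-Pf 10 the lowest for Hif1a (10.66). Con-Pf 4 was the highest for Mmp14 (8.12, the next at 7.77). Con-Pf 1 was the highest for Cryab (10.84) and the lowest for Nrxn3 (10.85), and Con-Pf 6 the highest for Slc17a7 (8.55, the next at 7.79).

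The choroid plexus genes stood out in 1 rat of each group. Folr1 was at 9.13 in Con 2, with the next Con array at 7.03, and at 9.95 in Con-Pf 4, with the next Con-Pf array at 7.81. Ttr was at 13.48 in Con 2, with the next at 9.07.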

How the results depend on the processing

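The number of probe sets called, higher and lower, and of the 122 genes outside both lists changed with some of the tests. The methods' t-test gave 66 calls (56 higher, 10 lower, 33 genes outside), the t-test with pooled variance 84 (70, 14 and 48) and limma on the 2 compared groups 99 (80, 19 and 56), while trend and robust moderation gave 184 and array weights 196. The number past the study's thresholds (a log2 difference of at least 0.5 in size and an unadjusted p below 0.01) was 29, and 26 to 29 under these other tests. No filter gave 96 (77, 19 and 56, and 48 past the study's thresholds), and the filter at the 0.75 quantile 88 higher, 81 genes outside and 14 past those thresholds. Lower calls numbered 60 after a further quantile normalization and 71 with centring on the median of the probe sets kept, an alternative chosen after seeing the data. With Con-Pf 9 and 10 left out there were 116 calls (97, 19 and 71), and with both counted as Con 27 (23, 4 and 10, and 19 past the thresholds). Without Con 3 and Con 5 there were 85 (66, 19 and 47).

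Leaving out 1 array gave 104 to 480 calls, 84 to 380 higher, 18 to 100 lower, 27 to 36 past the study's thresholds and 63 to 325 genes outside both lists. Lower calls numbered 18 when Con 1 was left out, 20 for Con 3 and for Con 5, 60 for Con 6, 87 for Con 4, 100 for Con 7, 70 for Con-Pf 8 and 21 to 24 for Con-Pf 2, 3, 5, 6, 7 or 9. Genes outside numbered 72 when Con 1 was left out, 63 for Con 3, 66 for Con 5, 185 for Con 4, 201 for Con 8, 240 for Con 6, 325 for Con 7 and 71 to 80 for Con-Pf 2, 4, 6, 7 or 9. The cause of these shifts was not tested.

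The replicate numbers did not pair the rats: deviations of same-numbered Con and Con-Pf arrays correlated at -0.08 to 0.18, and no Con array correlated best with its own number. A replicate block over replicates 1 to 8 gave 96 calls (76 higher, 20 lower, 47 genes outside), and the same arrays with no block 116 (97, 19 and 71).

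Of 51 called named genes, Rasl11a, Gpr3, Dusp14, Dusp5, Cited2, Edn1 and Slc19a3 were called under every alternative that tested them. The filter at the higher quantile removed genes of lower level, Rasl11a among them, and gave no value for these. Of 3091 values of named genes under the alternatives, 2661 kept their direction and side of the threshold, 408 lost the call, 19 gained one and 3 reversed. Those were of Ttr, which was not called: -0.021 with Con-Pf 9 and 10 counted as Con, -0.100 without Con 3 and Con 5, and with 1 array left out from -0.071 (without Con-Pf 4) to 1.06 (without Con 2). Of the values of the lists under the alternatives, which were not medians alone, 3762 were scored as the same and 235 as moved. The medians were judged by the spread between rats.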
